A study of Rattus norvegicus with 28 samples.

Results

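Ratios of the substance P precursor gene Tac1 and of the tachykinin receptor genes Tacr2 and Tacr3 were followed across 6 groups of arrays from the pain pathways of adult male rats. All array features that the platform annotation assigns to these 3 genes were taken, which gave 6 of the 228 features: Tac1 features 28, 55, 79 and 217, Tacr2 feature 219 and Tacr3 feature 156. Each of the 28 arrays was hybridised with RNA from injected rats in channel 1 (Alexa 647) and RNA from uninjected rats, of the same region, in channel 2 (Alexa 546). It gave 1 log ratio per feature, taken as log2. The labels do not identify single animals. Injected rats had been given 1 injection in the sole of the left hindpaw at postnatal day 3, and after weaning at day 21 they were raised to day 59, so the arrays compare adult tissue long after an injury early in life. The injection was either 0.25% carrageenan, a seaweed polysaccharide that causes inflammation, in 0.9% saline at 1 µl/g, or saline, whose volume the labels do not give. The groups were PAG carrageenan (5 arrays), PAG saline (5), RVM carrageenan (5), RVM saline (4), LDH left (5) and LDH right (4). PAG usually stands for the midbrain's periaqueductal grey and RVM for the rostral ventromedial medulla. LDH is the spinal cord's lumbar dorsal horn, and both of its sides came from carrageenan-injected rats.

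Tac1 is translated into a precursor that is cut into substance P and neurokinin A, short peptides of the tachykinin family. Substance P acts mainly on the receptor encoded by Tacr1, neurokinin A on that encoded by Tacr2, and neurokinin B, the product of another gene, on that encoded by Tacr3; all are G protein-coupled receptors. In the dorsal horn, substance P is released by nociceptive primary afferents, and tachykinins also act in the PAG and the RVM, parts of the descending system that controls pain. Genes of 7 further tachykinin ligands, receptors and peptide-degrading enzymes (Tacr1 among them) were looked for by name. Of these, 0 matched a named feature, so they were not analysed here. The ratios compare tissues and give no level, so the labelled regions could not be checked against marker genes, and 16 of 17 marker genes of neurons, glia, serotonergic cells and vessels had no annotated feature. In tissue samples such as these, fewer cells of a type and less RNA per cell cannot be told apart.

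The DNA before each gene's start is shown because these are the upstream regions of the only 3 tachykinin genes whose ratios are compared. The 250 bases before the start come from RefSeq's rat promoter table (build GRCr8); all 3 genes matched, and all lie on the + strand, Tac1 at chr4:36645333-36645582, Tacr2 at chr20:30751395-30751644 and Tacr3 at chr2:225940247-225940496. Capitals mark 3 short motifs searched on both strands: CACGTG (an E-box, its own reverse complement), TGACG (the core of a cyclic AMP response element; CGTCA on the other strand) and TATAAA, the usual core of a TATA box.
Tac1: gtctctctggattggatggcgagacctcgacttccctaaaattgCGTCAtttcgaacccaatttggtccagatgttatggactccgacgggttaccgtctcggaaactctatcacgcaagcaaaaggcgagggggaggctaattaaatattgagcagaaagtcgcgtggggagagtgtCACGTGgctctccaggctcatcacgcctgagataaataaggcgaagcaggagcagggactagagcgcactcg
Tacr2: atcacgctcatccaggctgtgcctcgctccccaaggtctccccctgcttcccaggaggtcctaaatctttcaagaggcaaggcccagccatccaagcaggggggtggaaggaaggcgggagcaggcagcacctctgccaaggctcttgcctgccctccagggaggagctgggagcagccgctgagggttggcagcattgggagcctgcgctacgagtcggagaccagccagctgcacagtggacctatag
Tacr3: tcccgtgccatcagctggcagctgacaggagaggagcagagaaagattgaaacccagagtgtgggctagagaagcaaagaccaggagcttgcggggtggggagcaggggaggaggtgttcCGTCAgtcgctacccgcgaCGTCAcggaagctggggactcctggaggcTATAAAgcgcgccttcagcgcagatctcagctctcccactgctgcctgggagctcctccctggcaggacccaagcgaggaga
The Tac1 window held CACGTG 72 to 67 bases before the start and CGTCA 206 to 202 bases before it. In the Tacr3 window CGTCA lay at 130 to 126 and at 111 to 107 bases before the start, and TATAAA at 82 to 77. In the Tacr2 window 0 of the 3 motifs were found, which says only that these letters are not in this window. Of 33469 promoter windows of the same length, 5.59% held CACGTG, 18.2% TGACG and 12.9% TATAAA, in either orientation. The matches are a description of the letters and were not tested as sites.

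An exact 0, which made up 55.9% of all deposited values, was taken as not measured. Tacr2 feature 219 had a ratio on 24 of 28 arrays, Tac1 features 55 and 79 on 23 each, and Tacr3 feature 156 on 19. Tac1 feature 28 had one on 8 arrays and Tac1 feature 217 on 2. The 4 Tac1 features refer to the same mRNA accession in the annotation, so they share a target. Arrays measured between 7 and 195 of the 228 features. The medians were 157 in PAG carrageenan against 92 in PAG saline and 72 in RVM carrageenan against 143.5 in RVM saline, so the groups differ in how many features have a ratio; the part of this in the results was not tested. PAG saline array 5 and LDH right array 1, which measured 33 and 7 features, had a ratio for 0 of the 6 tachykinin features. Ratios are given as injected over uninjected, which is the likely direction because the injected sample was channel 1 throughout. The deposited table does not state the direction, the log base (taken as 2) or any centring, so folds hold only for that base. Of 348 pairs of arrays that shared at least 15 measured features, 311 correlated positively across features. In 7 pairs r was below -0.3, and the lowest was -0.51. Dyes were never swapped, so in a ratio against uninjected controls the dye and the injection cannot be told apart. The labels do not say that each array had a rat of its own, so each p-value reflects array-to-array spread, some or all of which may be technical. Some arrays stood apart for several members: PAG carrageenan array 4 had the highest ratio of its group for 5 of 5 tachykinin features measured on it, and PAG saline array 2, RVM saline array 2 and LDH left array 1 had it for at least 3 features each.

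**Figure D1:**
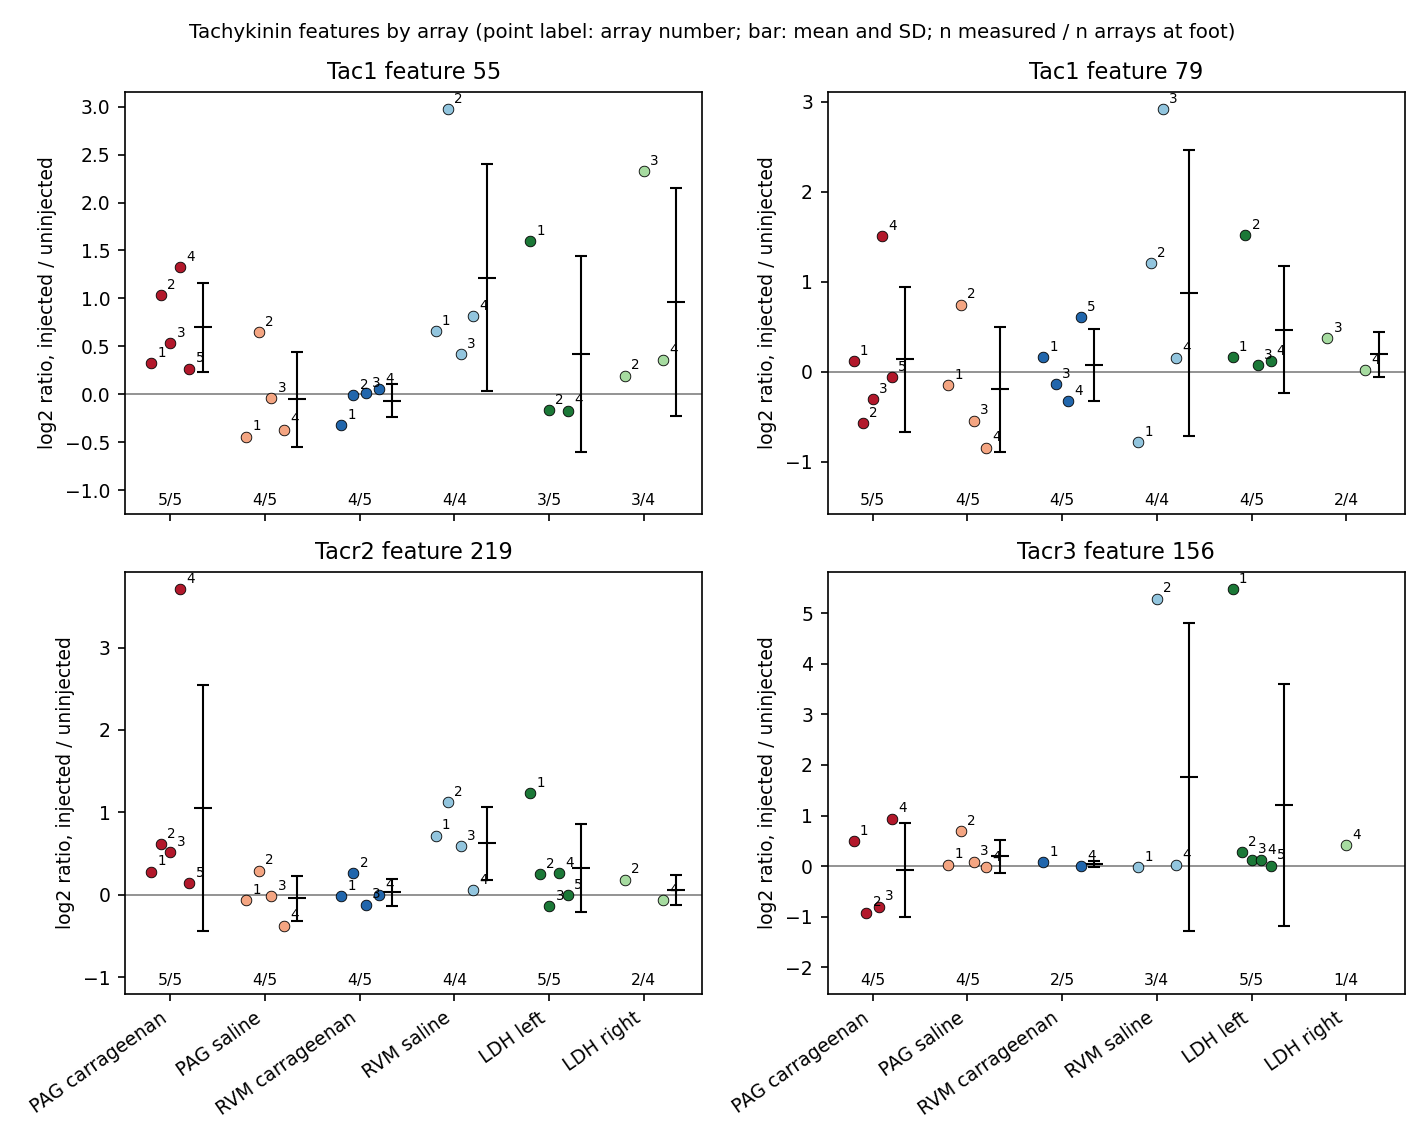
Log2 ratios (injected over uninjected, vertical axis) of 4 tachykinin features in the 6 groups of arrays (horizontal axis). Each point is an array labelled with its number, the bar is the group mean with its SD, and the fraction at the foot gives measured arrays of all arrays. Tac1 feature 55 lies above 0 on 5 of 5 PAG carrageenan and 4 of 4 RVM saline arrays, and single arrays carry the highest values of Tacr2 and Tacr3.

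The ligand gene is described first. In PAG, Tac1 feature 55 had log2 ratios of 0.33, 1.03, 0.54, 1.32 and 0.27 on carrageenan arrays 1 to 5. On saline arrays 1 to 4 the ratios were -0.44, 0.65, -0.036 and -0.37. All 5 carrageenan arrays were above 0, up to 2.5-fold on array 4, against 1 of 4 saline arrays, and the groups overlapped through saline array 2. The means were 0.70 ± 0.46 (SD, n = 5) and -0.05 ± 0.50 (n = 4), a difference of 0.75 (95% interval 0.046 to 1.45). By limma, a moderated linear model fitted over the 78 features measured on at least 3 arrays of each group, the unadjusted p was 0.0394 and the adjusted p 0.381 (Benjamini-Hochberg over all features tested). The exact two-sided permutation p was 0.0794, where 0.00794 was the smallest possible. Of the 4 tachykinin features tested here 0 passed an adjusted p of 0.05, as did 0% of all 78, while 1 of 4 had an unadjusted p below 0.05, against 12.8% of all features. This feature ranked 8 of 78 by p. The difference was 0.59 without carrageenan array 4 and 0.98 without saline array 2, and the unadjusted p was below 0.05 in 4 of 10 fits that left out 1 array. With all 6 groups in 1 limma fit its unadjusted p was 0.166 (adjusted 0.673).

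In RVM the same feature lay the other way. Tac1 feature 55 had log2 ratios of -0.32, -0.01, 0.013 and 0.055 on RVM carrageenan arrays 1 to 4, and of 0.66, 2.97, 0.42 and 0.81 on RVM saline arrays 1 to 4. Every saline array was above every carrageenan array, and saline array 2, at 7.86-fold, stood far above the other saline arrays. Groups did not overlap for 3.57% of the 56 features tested here. The means were -0.066 ± 0.17 after carrageenan and 1.22 ± 1.18 after saline (SD, n = 4 each), a difference of -1.28 (95% interval -2.59 to 0.022). The unadjusted limma p was 0.053 and the adjusted p 0.465; the exact permutation p was 0.0286, the smallest that 4 against 4 arrays allow, and 0.582 after adjustment over the 56 features. Without RVM saline array 2 the difference was -0.70 (limma unadjusted p = 0.00318, adjusted p = 0.153). Carrageenan arrays 2 and 4 measured only 30 and 29 features; without them 2 carrageenan arrays were left and the feature was not tested.

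The treatment difference of Tac1 feature 55 was therefore set against itself between the regions. The difference in PAG minus that in RVM was 2.03 (95% interval 0.68 to 3.38), with an unadjusted limma p of 0.006 and an adjusted p of 0.0959 over 48 features, of which it ranked 3 by p. The adjusted threshold was passed by 0 of the 3 tachykinin features and by 0% of all 48. An unadjusted p below 0.05 was found for 1 of the 3 tachykinin features and for 6.25% of all 48. Over 27 other settings the adjusted p lay between 0.0559 and 0.316, and without RVM saline array 2 the difference was 1.45 (adjusted p = 0.0569). This feature thus gave an interval away from 0 before correction for multiple tests, and did not pass after it.

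Tac1 feature 79, a second feature of the same gene, showed wider spread. In PAG its log2 ratios on carrageenan arrays 1 to 5 were 0.12, -0.57, -0.30, 1.51 and -0.056. On PAG saline arrays 1 to 4 they were -0.15, 0.75, -0.54 and -0.84. Most values of both groups were below 0 and they overlapped widely, with carrageenan array 4 and saline array 2 on top. The difference was 0.34 (95% interval -0.75 to 1.42; limma adjusted p = 0.795), -0.006 without carrageenan array 4 and 0.65 without saline array 2. In RVM the ratios were 0.16, -0.14, -0.32 and 0.60 on carrageenan arrays 1, 3, 4 and 5, and -0.78, 1.21, 2.92 and 0.15 on saline arrays 1 to 4. The saline arrays held both the highest and the lowest value. That difference was -0.80 (95% interval -2.58 to 0.97; adjusted p = 0.85), -0.12 without RVM saline array 3 and -1.35 without RVM saline array 1. The PAG difference minus the RVM difference was 1.14 (95% interval -0.78 to 3.06; adjusted p = 0.537), so its interval includes both 0 and the estimate of feature 55; it was 0.46 without RVM saline array 3.

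In LDH, Tac1 feature 55 had ratios of 1.60, -0.16 and -0.17 on left arrays 1, 2 and 4, and of 0.20, 2.33 and 0.36 on right arrays 2, 3 and 4. On the side of the injected paw 1 of 3 arrays was above 0, on the other side 3 of 3, and each side had 1 array far above its others. The sides differed by -0.54 (left minus right, 95% interval -2.47 to 1.39; limma adjusted p = 0.854 over 29 features, 0% of which passed; exact permutation p = 0.5, smallest possible 0.1). Tac1 feature 79 had ratios of 0.16, 1.52, 0.078 and 0.12 on left arrays 1 to 4 and of 0.37 and 0.019 on right arrays 3 and 4. All 6 of these were above 0, and 5 of them lay between 0.019 and 0.37. With features measured on at least 2 arrays per side admitted, the sides differed by 0.27 for this feature (95% interval -1.0 to 1.55; limma adjusted p = 0.879).

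The other Tac1 features were seldom measured. Feature 28 had ratios of -0.03, -0.092, -0.62 and 0.016 on PAG carrageenan arrays 1 to 4, -1.51 on PAG saline array 2, -1.70 and -1.42 on RVM saline arrays 2 and 4, and 1.77 on LDH left array 2. Among the arrays that measured it beside feature 55, only PAG carrageenan array 4 gave both the same sign. Feature 28 was negative and feature 55 positive on PAG carrageenan arrays 1 to 3, PAG saline array 2 and RVM saline arrays 2 and 4. On PAG carrageenan arrays 1 and 2 feature 28 lay close to 0. On LDH left array 2 feature 28 was positive and feature 55 negative. Feature 217 had a ratio of -2.40 on RVM carrageenan array 1 and of 0.14 on RVM saline array 4. Neither feature had 3 measured arrays in both groups of any comparison, so neither entered the fits described here. With PAG carrageenan fitted alone, feature 28 averaged -0.18 (95% interval -0.73 to 0.36; limma adjusted p = 0.614).

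The receptor genes come next. Tacr2, which encodes the receptor preferred by neurokinin A, had log2 ratios on feature 219 of 0.28, 0.61, 0.52, 3.71 and 0.14 on PAG carrageenan arrays 1 to 5. On PAG saline arrays 1 to 4 they were -0.065, 0.29, -0.015 and -0.37. All 5 carrageenan arrays were above 0 against 1 of 4 saline arrays, and carrageenan array 4, at 13.1-fold, ranked 2 of the 169 ratios of its array. The means were 1.05 ± 1.50 (SD, n = 5) and -0.04 ± 0.27 (n = 4), a difference of 1.09 (95% interval -0.53 to 2.72; limma adjusted p = 0.432; exact permutation p = 0.0952). Without carrageenan array 4 the difference was 0.43 (adjusted p = 0.344).

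In RVM, Tacr2 had ratios of -0.018, 0.26, -0.12 and -0.002 on carrageenan arrays 1 to 4, and of 0.72, 1.12, 0.59 and 0.062 on saline arrays 1 to 4. All 4 saline arrays were above 0 against 1 of 4 carrageenan arrays, and the groups overlapped only through saline array 4. The means were 0.03 ± 0.16 and 0.62 ± 0.44 (SD, n = 4 each), a difference of -0.59 (95% interval -1.14 to -0.047). The limma p was 0.037 unadjusted and 0.465 adjusted, and the exact permutation p 0.0571. With quantile normalization the difference was -0.24 (limma adjusted p = 0.909). With all 6 groups in 1 fit the limma p was 0.284 unadjusted and 0.901 adjusted. Carrageenan arrays 2 and 4 measured only 30 and 29 features, and without them Tacr2 was not tested in RVM or between the regions. Of the 3 tachykinin features tested in RVM 1 had an unadjusted p below 0.05, against 7.14% of all 56 features, and 0 passed the adjusted threshold, as did 0% of all. The PAG difference minus the RVM difference was 1.69 (95% interval -0.051 to 3.42; limma adjusted p = 0.515), and 1.02 without PAG carrageenan array 4 (adjusted p = 0.0956).

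In LDH, Tacr2 ratios were 1.23, 0.26, -0.13, 0.26 and -0.005 on left arrays 1 to 5 and 0.18 and -0.066 on right arrays 2 and 4. Left array 1 stood above all others, and the remaining values of both sides lay between -0.13 and 0.26. With at least 2 measured arrays per side the sides differed by 0.26 (95% interval -0.68 to 1.20; limma adjusted p = 0.867).

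Tacr3, which encodes the receptor preferred by neurokinin B, was set by single arrays. On feature 156 the PAG carrageenan arrays 1 to 4 had log2 ratios of 0.50, -0.92, -0.80 and 0.94, and the PAG saline arrays 1 to 4 of 0.031, 0.69, 0.09 and -0.015. The carrageenan arrays split evenly above and below 0 and enclosed the saline arrays, with means of -0.071 ± 0.93 and 0.20 ± 0.33 (SD, n = 4 each). Their difference was -0.27 (95% interval -1.34 to 0.80; limma adjusted p = 0.831), and it was 0.014 without carrageenan array 2 and -0.61 without carrageenan array 4. In RVM the ratios were 0.083 and -0.005 on carrageenan arrays 1 and 4, and -0.025, 5.28 and 0.023 on saline arrays 1, 2 and 4. In LDH they were 5.47, 0.27, 0.13, 0.13 and 0.008 on left arrays 1 to 5, and 0.42 on right array 4. Thus 1 array each in RVM saline and LDH left showed a 39-fold and a 44.4-fold ratio while the other arrays of these groups lay between -0.025 and 0.27. The value on LDH left array 1 was the highest of the 100 ratios of that array, and that on RVM saline array 2 ranked 3 of 146. All 5 LDH left arrays were above 0 for Tacr3, with a mean of 1.20 ± 2.39 (SD, n = 5).

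**Figure D2:**
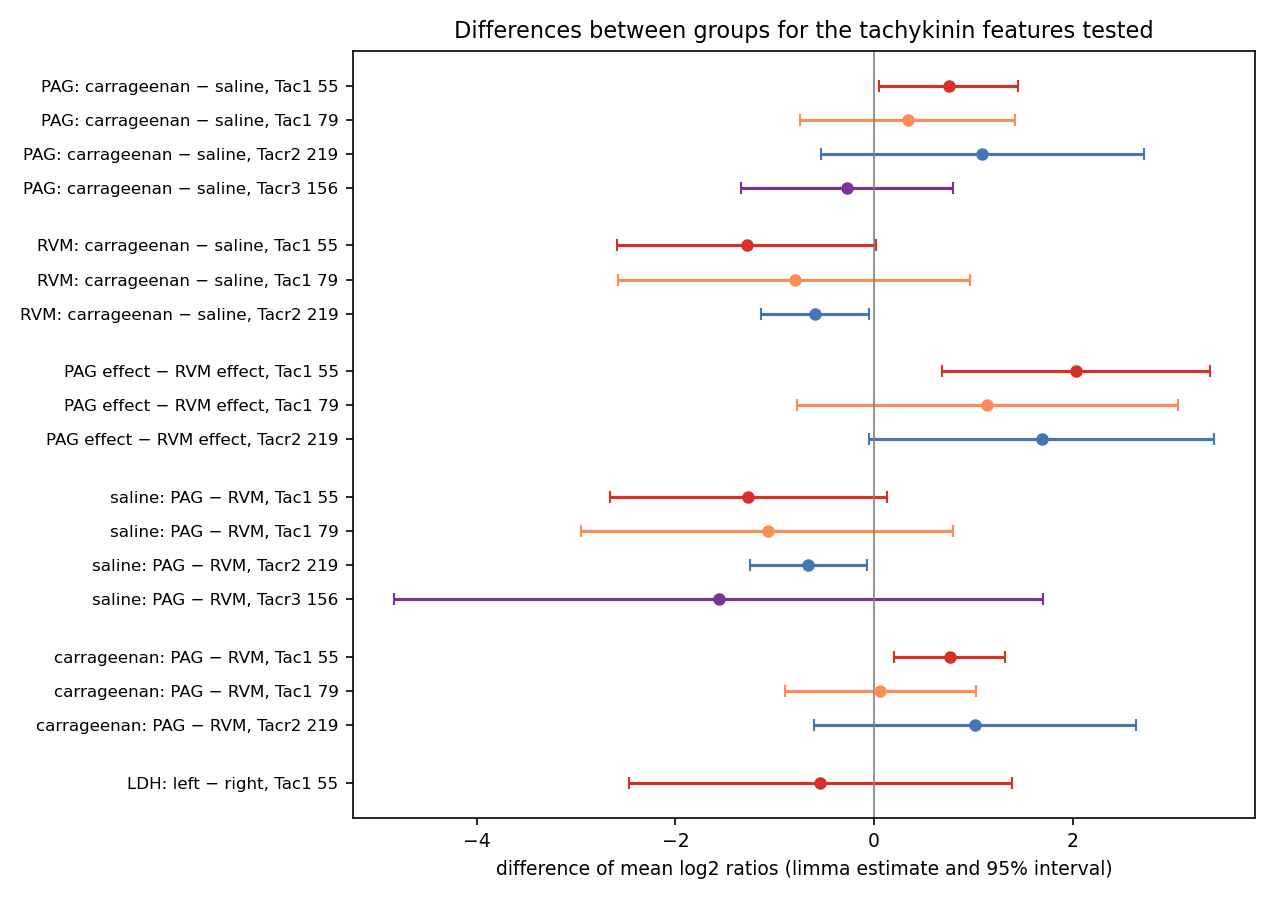
Differences between groups in mean log2 ratio (horizontal axis, limma estimate as a point, 95% interval as a bar) for each tachykinin feature tested, grouped by comparison (vertical axis). For the features tested in both regions, estimates lie above 0 in PAG and below 0 in RVM; the interval of Tac1 feature 55 for the PAG effect minus the RVM effect runs from 0.68 to 3.38.

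As a group, 3 of 4 tachykinin features had a higher mean after carrageenan than after saline in PAG, with a median difference of 0.54 against 0.14 over all 78 features, 59% of which were above 0. In RVM 3 of 3 were lower after carrageenan, with a median difference of -0.80 against -0.10 over all 56 features, 62.5% of which were below 0. For the PAG effect minus the RVM effect, 3 of 3 were above 0 with a median of 1.69, against 0.27 over all 48 features, 58.3% of which were above 0. These counts share arrays and include 2 features of 1 gene, so they are given as a description.

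Regions were also compared within a treatment, each with uninjected rats of its own region as reference. After saline, PAG minus RVM was -1.27 for Tac1 feature 55, and its 95% interval ran from -2.66 to 0.13; without RVM saline array 2 it was -0.68 (limma adjusted p = 0.419). The estimate for Tac1 feature 79 was -1.07 (from -2.95 to 0.80), but -0.39 without RVM saline array 3 and -1.62 without RVM saline array 1. That for Tacr3 was -1.56 (from -4.83 to 1.70), and without RVM saline array 2, which had the ratio of 5.28, too few arrays were left for the test. For Tacr2 it was -0.66 (95% interval -1.25 to -0.072; limma unadjusted p = 0.0327, adjusted p = 0.336). Thus 4 of 4 features had the lower mean in PAG (median difference -1.17), against 56.9% of all 72 features (median -0.042). These 4 share arrays and include 2 features of 1 gene, so the count is a description. An unadjusted p below 0.05 was found for 1 of the 4, against 9.72% of all 72, and 0 passed the adjusted threshold (0% of all). After carrageenan, PAG minus RVM was 0.76 for Tac1 feature 55 (95% interval 0.20 to 1.32; limma unadjusted p = 0.0137, adjusted p = 0.403; exact permutation p = 0.0238). Every PAG array was above every RVM array for this feature; groups did not overlap for 8.47% of the 59 features tested. The estimate for Tacr2 was 1.02, with a 95% interval from -0.60 to 2.64, and 0.36 without PAG carrageenan array 4 (limma adjusted p = 0.633). That for Tac1 feature 79 was 0.064, with an interval from -0.90 to 1.03, and -0.28 without the same array. Here 1 of 3 tachykinin features had an unadjusted p below 0.05, against 5.08% of all 59, and 0 passed (0% of all).

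Against uninjected rats, where the mean ratio is tested against 0, the same arrays gave the following values. In PAG carrageenan, Tac1 feature 55 at 0.70 (95% interval 0.23 to 1.17) had an unadjusted limma p of 0.00865 and an adjusted p of 0.0562. It ranked 12 of 78 features by p, while 14.1% of the 78 passed (8.97% above 0 and 5.13% below). That share depended on the processing: 11 of 78 features passed here, 0 of 78 with quantile normalization, 1 of 155 with each group fitted alone, and 1 to 9 when 1 array was left out. An unadjusted p below 0.05 was found for 1 of 4 tachykinin features, against 33.3% of all. Leaving out PAG saline array 2, which enters only through the shared variance estimate and the features admitted, brought the adjusted p of Tac1 feature 55 to 0.0315. It passed in only this 1 of 20 other settings. Its limma adjusted p reached 0.183 with all 6 groups in 1 fit (95% interval -0.028 to 1.42). In PAG carrageenan Tacr2 averaged 1.05 (95% interval -0.031 to 2.14, limma adjusted p = 0.157), or 0.39 without array 4 (limma adjusted p = 0.113). Tac1 feature 79 and Tacr3 averaged 0.14 and -0.071 there. In PAG saline all 4 features averaged between -0.20 and 0.20, or between -0.51 and 0.035 without array 2, and 0 passed, as did 0% of all 78; 0 of 4 had an unadjusted p below 0.05, against 11.5%. In RVM carrageenan the 3 tested features averaged between -0.066 and 0.075 and 0 passed, against 1.79% of all 56; 0 of 3 had an unadjusted p below 0.05, against 8.93%.

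In RVM saline, Tacr2 at 0.62 (95% interval 0.24 to 1.01) had an unadjusted limma p of 0.00643 and an adjusted p of 0.072, and Tac1 feature 55 at 1.22 (95% interval 0.29 to 2.14) had 0.0167 and 0.094. Tac1 feature 79 averaged 0.88 ± 1.58 (SD, n = 4; adjusted p = 0.365), 0.20 without array 3 and 1.43 without array 1. Of the 3 tachykinin features 0 passed, against 5.36% of the 56 features tested, all of them below 0 (5.36% lower and 0% higher); 0 passed with all 6 groups in 1 fit, and 0 without RVM saline array 2 or array 3. An unadjusted p below 0.05 was found for 2 of the 3, against 23.2% of all. Leaving out RVM saline array 4 or RVM carrageenan array 5 brought the adjusted p of Tacr2 to 0.0163 or 0.0491. The latter array had no Tacr2 ratio, and without it 34 features were tested in place of 56. Tacr2 passed in only these 2 of 18 other settings. Its limma adjusted p was 0.276 with quantile normalization and reached 0.382 with all 6 groups in 1 fit. Without RVM saline array 2, Tac1 feature 55 averaged 0.63 (adjusted p = 0.0612). In LDH, Tac1 feature 55 averaged 0.42 on the left and 0.96 on the right (adjusted p = 0.573 and 0.557), with 0% of the 29 features passing on either side; unadjusted p-values below 0.05 were found for 17.2% of the 29 on the left and 3.45% on the right, and for 0% in the comparison of the sides.

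Ordered by mean ratio, Tac1 feature 55 ran from RVM saline (1.22) through LDH right (0.96), PAG carrageenan (0.70), LDH left (0.42) and PAG saline (-0.05) to RVM carrageenan (-0.066). Each gap between neighbours in this order was smaller than the larger SD of the pair. Neighbours in an ordered list lie close by construction, so such gaps cannot show whether groups differ. Tacr2 ran from PAG carrageenan (1.05) through RVM saline (0.62), LDH left (0.32), LDH right (0.059) and RVM carrageenan (0.03) to PAG saline (-0.04). Its neighbours, too, differed by less than the larger SD in each of the 5 steps. The same held for Tac1 feature 79, from 0.88 in RVM saline to -0.20 in PAG saline. It also held for Tacr3, from 1.76 in RVM saline to -0.071 in PAG carrageenan, with LDH right (0.42 on 1 array) left out.

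Features were then compared across arrays, as a description: the points share the RNA, the dyes and the array, and cover all 6 groups. Tac1 feature 55 and Tacr2 had the same sign on 16 of 22 arrays that measured both, with Pearson r = 0.60 and Spearman rho = 0.76. Without the 2 arrays farthest from the median of Tac1 feature 55, RVM saline 2 and LDH left 1, r was 0.68, and within groups (deviations from group means, 20 arrays) it was 0.53. Of 2974 pairs of features that shared at least 15 measured arrays 3.26% had an r at least as high, and the median r was 0.033. The features 55 and 79 of Tac1 had the same sign on 12 of 21 arrays, with r = 0.27 and rho = 0.35. Within groups (19 arrays) r was 0.091, and it was 0.17 without RVM saline array 2 and LDH right array 3. Of all pairs of features 19.7% had an r at least as high as 0.27, so agreement between these 2 features was weak. They lay furthest apart on RVM saline array 3, at 0.42 and 2.92, and their difference had an SD of 1.08 across arrays. Over the 11 pairs of features that belong to 1 gene and shared at least 15 arrays, r ranged from -0.49 to 0.58 with a median of 0.14.

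**Figure D3:**
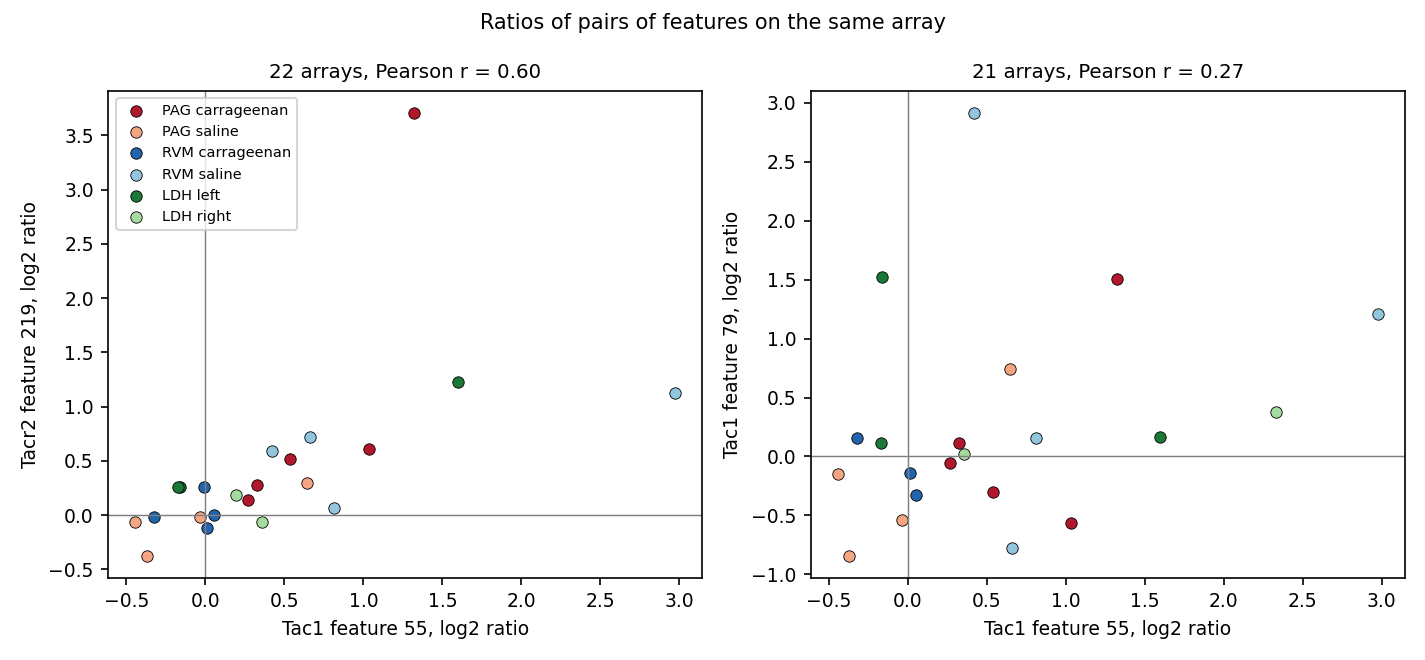
Log2 ratios of 2 features on the same array, 1 point per array coloured by group. Tac1 feature 55 against Tacr2 feature 219 (left) gave r = 0.60 over 22 arrays, with PAG carrageenan array 4 at the top; the Tac1 features 55 and 79 (right) scatter more widely over 21 arrays (r = 0.27).

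Tacr3 had r = 0.74 with Tac1 feature 55 over 17 arrays, but 0.032 without RVM saline array 2 and LDH left array 1, and rho was 0.32. With Tac1 feature 79 Tacr3 had the same sign on 16 of 18 arrays (r = 0.42, rho = 0.79), and with Tacr2 on 10 of 19 (r = 0.36, rho = 0.27). Tacr2 and Tac1 feature 79 had r = 0.43 over 21 arrays. Among named features of other genes, Ngfr feature 166, the low-affinity neurotrophin receptor, was most like both Tac1 feature 55 (r = 0.86 over 23 arrays, 0.75 without the 2 farthest) and Tacr2 (r = 0.79 over 24 arrays, 0.71 without the 2 farthest). Next for Tac1 feature 55 came Gabrq feature 59, a GABA-A receptor subunit (r = 0.69, and 0.57 without the 2 farthest), and Htr4 feature 17, a serotonin receptor (r = 0.66 and 0.46). For Tacr2 they were Il10 feature 137, a cytokine (r = 0.72 over 17 arrays, and 0.45 without the 2 farthest), and Il11ra1 feature 99, a cytokine receptor subunit (r = 0.70 and 0.55). For Tac1 feature 79 the highest were Gabbr1 feature 36 (r = 0.58), Pdyn feature 195 (r = 0.55) and Htr4 feature 17 (r = 0.55), which had r of -0.29, 0.48 and 0.53 without the 2 farthest arrays. For Tacr3 the highest, a somatostatin receptor feature annotated without a number (0.87), Il5ra feature 109 (0.85) and Adrb3 feature 42 (0.84), had r of -0.067, -0.58 and 0.092 without the 2 farthest arrays.

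Other peptides and peptide receptors of pain pathways were covered by 41 features of 29 genes from a list of 51. In the carrageenan against saline comparison in PAG, 14 of these features were tested and 0 passed by limma. Of the 14, 11 had the higher mean after carrageenan (median difference 0.30), against 59% of all 78 features (0.14). In RVM 9 were tested and 0 passed. Of the 9, 6 had the lower mean after carrageenan (median difference -0.11), against 62.5% of all 56 features (-0.10). The list features with the smallest p were Ntsr1, a neurotensin receptor, in PAG (1.25, limma adjusted p = 0.381) and Sstr5, a somatostatin receptor, in RVM (-1.10, adjusted p = 0.465). For the PAG effect minus the RVM effect 6 of 8 were above 0 (median 0.56), against 58.3% of all 48 features (0.27), and 0 passed. In LDH 3 of 6 were higher on the left, against 58.6% of all 29 features, and 0 passed. Against uninjected rats 3 of 14 passed above 0 in PAG carrageenan by limma, where 8.97% of all 78 features did so. These were Pdyn, the dynorphin precursor (0.97, adjusted p = 0.0224), Nts, the neurotensin precursor (0.57, adjusted p = 0.0227), and Ntsr1 (1.25, adjusted p = 0.049); of the 4 tachykinin features in the same test 0 passed. All 3 calls were lost with quantile normalization (limma adjusted p = 0.149 each), with zeros kept and with each group fitted alone. With 1 array left out, Pdyn passed in 7 of 10 fits, Nts in 6 of 10 and Ntsr1 in 0 of 10. In RVM saline 1 of 9 passed below 0, where 5.36% of all 56 features did so: Vipr2, a receptor for vasoactive intestinal peptide (-0.68, limma adjusted p = 0.0409). It did not pass with all 6 groups in 1 fit (limma adjusted p = 0.699), with quantile normalization (0.276) or in 4 of 9 fits that left out 1 array, RVM saline array 2 among them.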

How the data were processed

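The deposited table holds, per array, a log2 ratio for each of 228 features, made by the authors from custom printed oligonucleotide arrays; base 2 was inferred from the range of the values. Scanner, filters, background correction and normalization are not given in the sources used here. Array and measured-feature numbers limit the precision. Features were named from the platform annotation (202 of 228 with a symbol), updated through a RefSeq gene table (191 matched).

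Groups came from sample titles. The 12 comparisons were fitted in limma 3.58.1 under R 4.3.3 by lmFit and eBayes with two-sided tests. Each fit held the groups compared (for a test against uninjected, both groups of the region). A feature needed 3 measured arrays in every group, and p-values were adjusted by Benjamini-Hochberg over all features tested, threshold 0.05. The fit was tried on simulated normal values without outlying arrays. Their spread was smaller than that of any array here, and the added shift was larger than any tachykinin difference. That checks the code and does not show how the fit behaves on these data. Exact permutation tests were adjusted over the same features. The members, lists and rules were chosen with earlier results of these data known. Named were all member features, up to 4 list features per comparison by smallest p, and the 3 most correlated named features per member. Alternatives changed zeros, centring, normalization, filters, samples, variance, weights, blocks and single arrays. Whether equal array numbers mark samples of the same rat is not stated in the labels, so arrays were taken as unpaired. Carrageenan and saline arrays hold different injected rats, because each injected rat had 1 injection. Whether they share uninjected rats is not stated. Deviations of same-numbered arrays correlated between -0.33 and 0.37 for PAG carrageenan against PAG saline. The range was -0.78 to -0.04 for LDH left against right, with -0.78 resting on 7 features. Between PAG and RVM it was -0.46 to 0.27 after saline and -0.12 to 0.19 after carrageenan. These correlations cannot decide whether samples are paired.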

Additional observations from a re-analysis of the deposited data

Results flagged for a closer look

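Of 18 groups of 4 or 5 measured arrays, 7 had 1 array set apart from the others by more than Dixon's 95% limit. About 1 of 20 groups would pass that limit if values were normal and groups independent. These groups share arrays, and normality was not tested. The share over all features is not given, so the count is no trait of the tachykinin features. For Tac1 these were feature 28 on PAG carrageenan array 3 (-0.62, nearest -0.092), feature 55 on RVM saline array 2 (2.97, nearest 0.81) and feature 79 on LDH left array 2 (1.52, nearest 0.16). For Tacr3 they were PAG saline array 2 (0.69, nearest 0.09) and LDH left array 1 (5.47, nearest 0.27). For Tacr2 they were PAG carrageenan array 4 (3.71, nearest 0.61) and LDH left array 1 (1.23, nearest 0.26).

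The carrageenan against saline difference of Tac1 feature 55 differed between PAG and RVM by 2.03 (limma, unadjusted p = 0.006, adjusted p = 0.0959); it was above 0 in PAG (0.75) and below 0 in RVM (-1.28).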

How the results depend on the processing

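No tachykinin feature passed the adjusted threshold in any of the 12 comparisons under zeros kept, median centring, quantile normalization, at least 2 measured arrays, 1 fit of all 6 groups, robust variance, array weights, the replicate block or, where testable, without arrays of fewer than 40 features. No tachykinin feature was measured on every array of a fit, so that setting gave no value. Each group fitted alone, chosen after seeing the data, changed no tachykinin call. Over all features the calls moved more: in PAG carrageenan against uninjected 11 passed, and 0 to 12 under other settings. In RVM saline 3 passed, and 0 to 8 under other settings.

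With quantile normalization the mean in RVM carrageenan turned sign for Tac1 features 55 (0.04) and 79 (-0.03); with array weights those of feature 79 in PAG carrageenan (-0.078) and between PAG and RVM after carrageenan (-0.17), and of feature 55 in LDH left (-0.028), did so. Without arrays of fewer than 40 features the PAG against RVM value of feature 79 was -0.068. The cause was not tested.

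Leaving out single arrays, called tachykinin features ranged from 0 to 1 in PAG carrageenan and in RVM saline against uninjected. Ranges that crossed 0 for carrageenan against saline in PAG were -0.006 to 0.65 (Tac1 feature 79) and -0.61 to 0.014 (Tacr3). For PAG carrageenan against uninjected they were -0.20 to 0.32 (feature 79) and -0.41 to 0.21 (Tacr3). For PAG saline they were -0.28 to 0.08 (feature 55), -0.51 to 0.019 (feature 79) and -0.15 to 0.071 (Tacr2). In RVM carrageenan they were -0.11 to 0.019 (feature 55), -0.10 to 0.21 (feature 79) and -0.046 to 0.08 (Tacr2), and for PAG against RVM after carrageenan -0.28 to 0.24 (feature 79). The r of Tac1 features 55 and 79 ranged from 0.16 to 0.41.

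With the replicate block the PAG effect minus the RVM effect of Tac1 feature 55 was 2.14 (limma adjusted p = 0.0559); the block changed no tachykinin call. The number of measured arrays, 2 to 5 per group, limits these comparisons.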
